A study of Saccharomyces cerevisiae with 12 samples.

Results

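The genes described here encode the subunits of the 3 nuclear RNA polymerases of the budding yeast Saccharomyces cerevisiae. They were chosen as the rows of the deposited table that carry the systematic names of these subunits, which gave 31 of 6212 rows, and 28 of the 31 had a value on at least 1 array. By the enzyme they belong to, 7 genes are specific to RNA polymerase I, 10 are specific to RNA polymerase III, 2 are shared by polymerases I and III, 5 are shared by all 3 enzymes, and 7 are specific to polymerase II. The question followed through the data is whether the polymerase II-only genes behaved like the genes of the other classes.

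The study measured transcripts on 12 two-colour arrays, each of which set RNA from a treated culture against RNA from a control culture of the same strain. The groups are the snf1 mutant at alkaline pH (4 arrays, strain DBY4741, snf1::KanMX), the wild type at alkaline pH (4 arrays, DBY4741), the snf1 mutant at low glucose (2 arrays, strain DBY746, labelled only as snf1 mutant), and the wild type at low glucose (2 arrays, DBY746). SNF1 encodes the yeast AMP-activated protein kinase, which is needed for growth on carbon sources other than glucose. For the alkaline arrays, cultures growing in YPD at 28 °C were brought to about pH 8.0 with 16 mM KOH, and the controls, at about pH 5.5, were given 16 mM KCl, for 10 min in both cases. For the low glucose arrays, cells were washed and resuspended in fresh medium with 0.05% glucose, or with 2% glucose for the controls, for 15 min. All values below are log2 ratios of treated over control, so that a negative value means less transcript in the treated culture. This direction follows the order of the titles and is likely rather than stated. The genotype field of the first snf1 array at alkaline pH reads snf11 where its title reads snf1.

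RNA polymerase I transcribes the large ribosomal RNA precursor, polymerase II transcribes messenger RNAs, and polymerase III transcribes transfer RNAs, 5S ribosomal RNA and other small RNAs. The enzymes share a common core, in which a subunit is either the same protein in all of them or has a related counterpart in each. In growing yeast most transcription by polymerases I and III serves ribosome production, and the genes of their subunits are commonly counted with the ribosome biogenesis genes, which are repressed under many stresses. Every subunit gene is itself transcribed by polymerase II, and the arrays measured these messenger RNAs and not the activity of any polymerase.

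Between 4056 and 5597 spots per array had a value, array medians lay between -0.065 and 0.112, and replicate arrays of a group correlated with Pearson coefficients between 0.683 and 0.953 across genes. SNF1 itself had a value on only 2 arrays, 0.16 on a snf1 array and 0.29 on a wild type array at alkaline pH, and since each array compares a strain with itself these values do not test the deletion. The 2 wild type arrays at low glucose stood apart in their spread and in their relation to gene length. The SD of their log2 ratios across genes was 1.13 and 1.17, against 0.630 to 0.835 on the other arrays. The tests below use 1 estimate of spread per gene for all groups. Their log2 ratios also fell with the length of the gene (Spearman coefficients across genes -0.452 and -0.41, against -0.173 to 0.11 on the other arrays). On these 2 arrays the median of genes over 3000 bases was -1.32 and -1.18, while that of genes under 1000 bases was 0.455 and 0.427. This bears on short members and on the 6 longest subunit genes, RPO21 (YDL140C), RPA190 (YOR341W), RPO31 (YOR116C), RPB2 (YOR151C), RPA135 (YPR010C) and RET1 (YOR207C). Each low glucose result on the long genes is given below both as deposited and after the trend with length was removed from each array. For short members only part of the results is given in both ways. That second set of values was chosen after the trend had been seen. RPA190, RPC11 (YDR045C) and RPB10 (YOR210W) had no value on any array, and 18 members had a value on all 12.

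**Figure D1:**
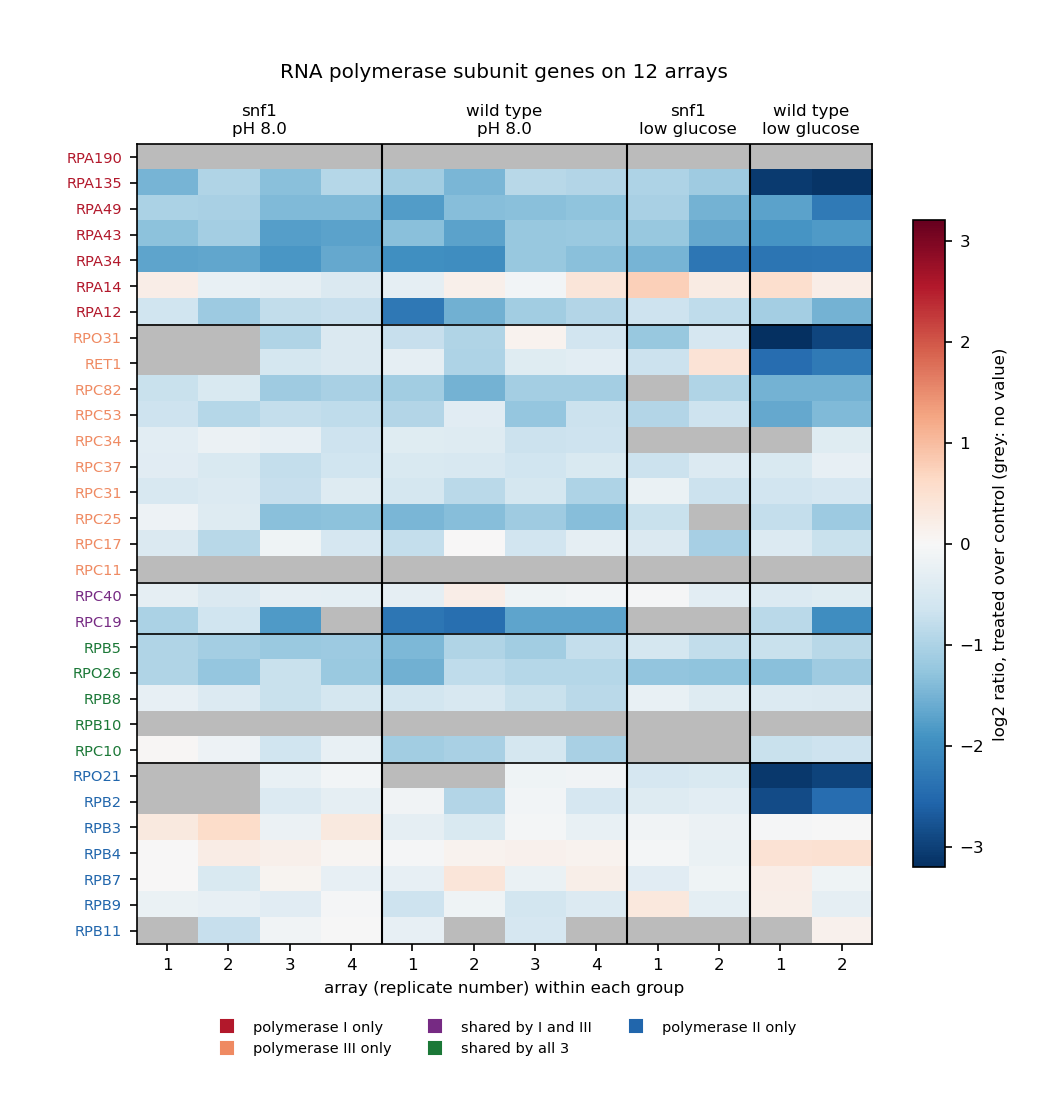
Log2 ratio of treated over control for the 31 RNA polymerase subunit genes (rows, grouped by enzyme and ordered by length within a class) on the 12 arrays (columns, grouped by genotype and treatment). Blue is lower in the treated culture, red is higher and grey has no value; the rows of the polymerase I-only class are blue throughout except RPA190, which has no value, and RPA14 (YDR156W), which takes both signs, and the short polymerase II-only genes at the bottom are pale.

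At alkaline pH most subunit genes of polymerases I and III, and most of the shared ones, fell in both genotypes, and most of those specific to polymerase II were not called. In the snf1 mutant 17 of 24 tested members were lower and 0 were higher, where 26.2% of all tested genes were called lower and 21.7% higher. In the wild type 21 of 26 were lower and 0 higher, where 30.0% of all genes were called lower and 25.6% higher. The calls come from one limma fit over all 12 arrays with a dye term, at an adjusted p under 0.05 (Benjamini-Hochberg over all tested genes). Polymerase II-only members made up none of the lower calls in the mutant (0 of 5 tested) and 2 in the wild type (of 5 tested), whereas the other classes together gave 17 of 19 in the mutant and 19 of 21 in the wild type. The median log2 ratio of the polymerase II-only members was -0.17 in the mutant and -0.26 in the wild type. For the other classes together it was -0.81 in the mutant and -0.94 in the wild type. For all tested genes it was -0.037 in the mutant and -0.045 in the wild type. Each array compared equal inputs of total RNA from whole cultures, so less of a transcript per cell and fewer cells that carry it cannot be told apart.

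**Figure D2:**
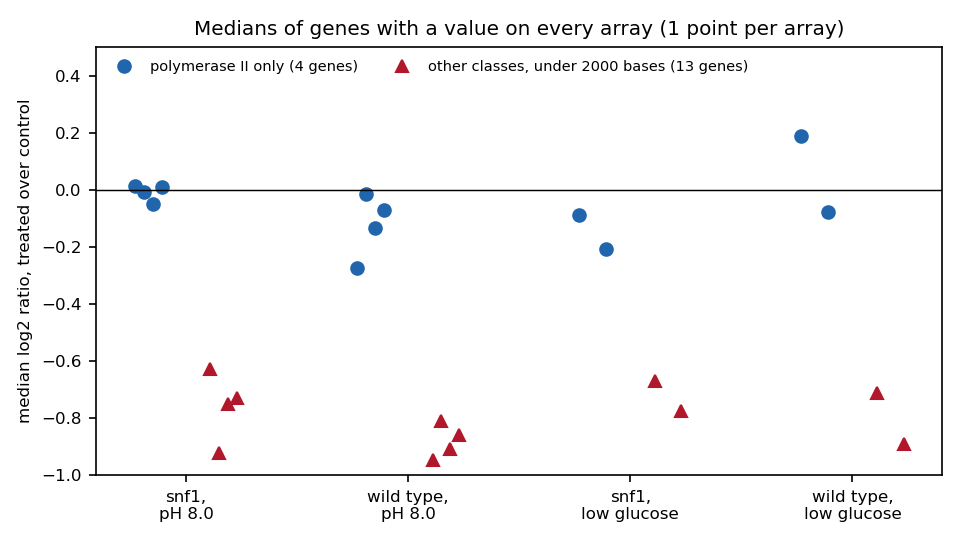
Median log2 ratio, treated over control, of the 4 polymerase II-only genes (circles) and of the 13 genes under 2000 bases of the other classes (triangles) that had a value on every array, with 1 point of each kind per array. The circles lie between -0.28 and 0.19 and the triangles between -0.95 and -0.63, and on each of the 12 arrays the circle lies above the triangle, by 0.57 to 0.92.

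The same separation was seen on single arrays for members under 2000 bases that were measured on every array. The median of the 4 polymerase II-only genes exceeded that of the 13 genes of the other classes by 0.64 to 0.92 on the snf1 arrays and by 0.67 to 0.80 on the wild type arrays at alkaline pH. At low glucose the difference was 0.58 and 0.57 on the snf1 arrays and 0.90 and 0.81 on the wild type arrays. No test is given for a class, because the members were chosen with results of these data known.

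Among the polymerase I-only genes, RPA34 (YJL148W) and RPA49 (YNL248C) encode the 2 partners of a heterodimer that is related in fold to the general factor TFIIF of polymerase II. RPA34 read -1.69, -1.66, -1.86 and -1.63 on the 4 snf1 arrays and -1.97, -1.99, -1.21 and -1.35 on the 4 wild type arrays at alkaline pH. It thus fell by 1.71 ± 0.15 (SE) in the mutant and by 1.63 ± 0.15 in the wild type, or 3.28-fold and 3.09-fold (adjusted p = 6.11e-06 and 4.66e-06), and the arrays of the genotypes overlapped. RPA49 read -1.01, -1.05, -1.40 and -1.42 in the mutant and -1.80, -1.37, -1.34 and -1.30 in the wild type, with fitted changes of -1.22 and -1.45 (adjusted p = 1.04e-05 and 1.65e-06). The 2 partners were thus low on every array.

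RPA43 (YOR340C), a subunit of the stalk that meets the initiation factor Rrn3, read -1.32, -1.08, -1.75 and -1.71 in the mutant and -1.34, -1.71, -1.21 and -1.19 in the wild type (fitted -1.47 and -1.36, adjusted p = 7.59e-06 and 6.95e-06). RPA135, the second largest subunit, which forms the active centre together with the product of RPA190, read -1.50, -0.97, -1.33 and -0.91 in the mutant and -1.11, -1.46, -0.88 and -0.93 in the wild type (fitted -1.18 and -1.09, adjusted p = 1.78e-05 and 2e-05). For both genes the ranges of the genotypes overlapped. RPA43 lies next to RPA190 in the R64 annotation, and RPA190 had no value with which to compare it.

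RPA12 (YJR063W), the subunit for RNA cleavage, was more spread. It read -0.63, -1.15, -0.79 and -0.73 on the snf1 arrays and -2.29, -1.53, -1.11 and -0.95 on the wild type arrays, and fell by 0.83 in the mutant and by 1.47 in the wild type (adjusted p = 0.00139 and 1.68e-05). The difference of the genotypes, 0.64 ± 0.23, was not called (adjusted p = 0.181). RPA14, which encodes the partner of Rpa43 in the stalk, was the exception in this class. Its values lay on both sides of 0, at 0.20, -0.23, -0.29 and -0.47 in the mutant and -0.29, 0.16, -0.10 and 0.38 in the wild type, and were not called in either genotype (adjusted p = 0.176 and 0.792).

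In the polymerase III-only class the test called 7 of 7 tested members lower in the mutant and 9 of 9 in the wild type, with medians of -0.56 and -0.55. RPC82 (YPR190C), RPC34 (YNR003C) and RPC31 (YNL151C) encode a trimer of subunits found only in polymerase III that acts in initiation. RPC82 read -0.72, -0.48, -1.13 and -1.05 in the mutant and -1.12, -1.51, -1.08 and -1.10 in the wild type (fitted -0.84 and -1.20, adjusted p = 0.000227 and 1.38e-05). The other two changed less, with fitted values of -0.36 and -0.54 for RPC34 and -0.53 and -0.74 for RPC31 in the mutant and the wild type, all called. The RPC34 call in the mutant ended without snf1 array 4 (-0.27, adjusted p = 0.0826). Members of the trimer therefore did not share one size of change.

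RPC53 (YDL150W) and RPC37 (YKR025W) encode the polymerase III heterodimer that corresponds to Rpa49 and Rpa34. RPC53 fell by 0.79 in the mutant and 0.82 in the wild type, and RPC37 by 0.56 and 0.53 (adjusted p between 0.000173 and 0.000567). These values were closer to 0 than those of the polymerase I heterodimer on the same arrays. RPC25 (YKL144C), the stalk subunit that corresponds to Rpa43, read -0.15, -0.43, -1.35 and -1.30 in the mutant and -1.47, -1.37, -1.13 and -1.37 in the wild type. Snf1 arrays 1 and 2 thus lay above all wild type arrays and arrays 3 and 4 among them; the gene fell by 0.81 ± 0.19 in the mutant and by 1.33 ± 0.19 in the wild type. Its stalk partner RPC17 (YJL011C) changed by -0.51 in the mutant and -0.42 in the wild type (adjusted p = 0.0069 and 0.0179). The call of RPC17 in the wild type ended without array 1, 3 or 4 (adjusted p = 0.0838, 0.06 and 0.0672).

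The 2 largest polymerase III subunits form its active centre. At alkaline pH both were measured on only 2 snf1 arrays, where RPO31 read -0.96 and -0.47 and RET1 read -0.57 and -0.46, so neither was tested in the mutant. On the wild type arrays RPO31 read -0.74, -0.97, 0.12 and -0.62 and RET1 read -0.29, -0.99, -0.39 and -0.34, and both were called lower (fitted -0.55 and -0.50, adjusted p = 0.0196 and 0.0185). These calls were fragile. The RPO31 call ended without wild type array 1, 2 or 4 (adjusted p = 0.0995, 0.0959 and 0.0511), and the RET1 call ended without array 2 or 3 (adjusted p = 0.0977 and 0.0642).

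The 2 genes shared by polymerases I and III encode the assembly pair of the core, and they did not move alike. RPC19 (YNL113W) had the lowest mean of all members in the wild type at alkaline pH. It read -1.02, -0.63 and -1.80 on the 3 snf1 arrays that measured it and -2.32, -2.43, -1.70 and -1.70 on the wild type arrays, with fitted values of -1.10 ± 0.26 in the mutant and -2.04 ± 0.22 in the wild type (adjusted p = 0.00622 and 4.05e-05), the wild type fall being 4.1-fold. Without snf1 array 1 the call in the mutant ended (adjusted p = 0.0632). RPC40 (YPR110C) stayed nearer 0, at -0.30, -0.47, -0.29 and -0.32 in the mutant and -0.28, 0.21, -0.14 and -0.08 in the wild type; it was called in the mutant (-0.34, adjusted p = 0.00832) and not in the wild type (-0.072, adjusted p = 0.521). The difference of the genotypes for RPC40, -0.27, was not called (adjusted p = 0.334).

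Of the 5 subunits common to all 3 polymerases, 4 were measured, with a median of -0.76 in the mutant and -0.99 in the wild type. RPB5 (YBR154C) read -0.97, -1.09, -1.18 and -1.16 in the mutant and -1.44, -0.97, -1.11 and -0.77 in the wild type (fitted -1.10 and -1.07). RPO26 (YPR187W) read -0.97, -1.23, -0.71 and -1.18 in the mutant and -1.53, -0.81, -0.91 and -0.92 in the wild type (fitted -1.02 and -1.04). These 2 genes were about as low in the mutant as in the wild type, with all adjusted p at or under 6.01e-05. RPB8 (YOR224C) changed less, by -0.49 in the mutant and -0.67 in the wild type (adjusted p = 0.00139 and 0.000124). RPC10 (YHR143W-A), a small zinc-binding subunit, read 0.045, -0.17, -0.64 and -0.23 in the mutant, not called (-0.25, adjusted p = 0.134), and -1.11, -1.05, -0.57 and -1.05 in the wild type, where it fell by 0.94 (adjusted p = 0.000112).

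Of the polymerase II-only genes tested at alkaline pH, RPB3 (YIL021W), RPB4 (YJL140W) and RPB7 (YDR404C) were not called in either genotype, and RPB9 (YGL070C) and RPB2 were called lower in the wild type. RPB3 read 0.31, 0.60, -0.19 and 0.32 on the snf1 arrays and -0.28, -0.48, -0.06 and -0.24 on the wild type arrays, so that 3 of 4 snf1 arrays were above 0 and all 4 wild type arrays below it, and it was not called in either genotype (adjusted p = 0.0927 and 0.08). Without snf1 array 3, which read below 0, RPB3 was called higher in the mutant (0.43, adjusted p = 0.00504). RPB4 and RPB7 encode the stalk, which can leave the enzyme. Their fitted values were 0.12 and -0.17 in the mutant and 0.077 and 0.028 in the wild type, none called.

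RPB9, the polymerase II counterpart of RPA12, read -0.22, -0.26, -0.35 and -0.044 in the mutant (adjusted p = 0.0745). In the wild type it read -0.67, -0.14, -0.60 and -0.43 and fell by 0.46 (adjusted p = 0.00142). The other polymerase II-only gene called in the wild type was RPB2, the second largest subunit, at -0.10, -0.94, -0.09 and -0.54 (fitted -0.42, adjusted p = 0.0164), and that call ended without wild type array 2 (-0.28, adjusted p = 0.0905). RPB2 and the largest subunit RPO21, whose tail carries the heptad repeats, had values on only 2 snf1 arrays, -0.43 and -0.30 for RPB2 and -0.24 and -0.097 for RPO21. RPO21 also had only 2 wild type values, -0.15 and -0.12, and was not tested at alkaline pH. RPB11 (YOL005C), the partner of Rpb3, had 3 values in the mutant, -0.73, -0.11 and -0.003, and was not called there (adjusted p = 0.34); the 2 wild type values were -0.27 and -0.55.

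At low glucose most of the genes of polymerases I and III and of the shared classes also fell in both genotypes. In the snf1 mutant 13 of 22 tested members were called lower and 1 higher, where 16.9% of all tested genes were lower and 28.9% higher. In the wild type 21 of 26 were lower and 1 higher, against 31.5% and 33.7% of all genes. Leaving out either array of a group leaves 1 array, whose spread is then borrowed from the other groups, and the members called went to 9 without snf1 array 1 and 8 without snf1 array 2, and to 16 without wild type array 1 and 14 without wild type array 2. Long genes are given apart here, since 81.7% of genes over 3000 bases were called lower in the wild type, against 28.6% in the mutant. Among members under 2000 bases, as deposited, 10 of 17 were lower in the mutant and 16 of 21 in the wild type. The shares over all genes given above are not matched for length. On the wild type arrays the medians of genes under 1000 bases were 0.455 and 0.427. None of the polymerase II-only members under 2000 bases was lower as deposited in either genotype (4 tested in each).

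In the polymerase I-only class RPA34 read -1.49 and -2.31 on the snf1 arrays and -2.34 and -2.32 on the wild type arrays, with fitted values of -1.90 and -2.33 (adjusted p = 4.84e-05 and 2.76e-06). RPA43 read -1.21 and -1.64 in the mutant and -1.89 and -1.81 in the wild type. RPA49 read -1.04 and -1.52 in the mutant and -1.71 and -2.27 in the wild type, and both genes were called in both genotypes. These 3 genes were thus among the lowest short members in both genotypes. RPA12 read -0.67 and -0.82 in the mutant and -1.09 and -1.52 in the wild type (fitted -0.74 and -1.31, adjusted p = 0.02 and 0.000391), and the call in the mutant ended without either array (adjusted p = 0.25 and 0.0984). With the length trend removed, RPA12 stood at -0.70 in the mutant and at -1.76 in the wild type (adjusted p = 0.0273 and 4.84e-05). RPA14 then stood at 0.56 in the mutant (adjusted p = 0.022) and at -0.061 in the wild type (adjusted p = 0.78). As deposited too, RPA14 again went apart from its class. It read 0.76 and 0.27 in the mutant, where it was called higher (0.51, adjusted p = 0.0206; without snf1 array 1 or 2 the adjusted p was 0.266 or 0.0896), and 0.53 and 0.22 in the wild type, where it was not called (adjusted p = 0.056).

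The median of the polymerase III-only genes under 2000 bases was closer to 0 than that of polymerase I. It was -0.66 in the mutant and -0.77 in the wild type, against -1.28 and -1.85 for the polymerase I-only genes of that length. These medians are a description with no test. RPC53 read -0.93 and -0.65 in the mutant and -1.63 and -1.41 in the wild type, and RPC82 read -0.97 on 1 snf1 array and -1.51 and -1.50 in the wild type. With the length trend removed, RPC37, RPC31 and RPC17 stood at -0.58, -0.43 and -0.73 in the mutant. In the wild type they then stood at -0.64, -0.88 and -0.99, and no difference of the genotypes was called for them. As deposited, these 3 genes were lower in both genotypes, with fitted values between -0.76 and -0.45 in the mutant and between -0.58 and -0.38 in the wild type. In the wild type these 3 calls ended without either array (adjusted p between 0.07 and 0.33). In the mutant the RPC37 and RPC53 calls ended without array 1 (adjusted p = 0.149 and 0.158) and the RPC31 and RPC17 calls without array 2 (adjusted p = 0.599 and 0.137). RPC25, the stalk subunit, read -0.70 on 1 snf1 array and -0.75 and -1.16 in the wild type, where its call ended without array 2. With the length trend removed RPC25 stood at -1.31 in the wild type (adjusted p = 0.00179).

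Of the shared genes, RPO26 read -1.26 and -1.29 in the mutant and -1.33 and -1.14 in the wild type (fitted -1.27 and -1.23), and RPB5 read -0.56 and -0.78 in the mutant and -0.71 and -0.89 in the wild type. Both were called in both genotypes. With the length trend removed RPO26 stood at -1.24 in the mutant and -1.63 in the wild type, and RPB5 at -0.64 and -1.15. The difference of the genotypes was then 0.38 for RPO26 (adjusted p = 0.233) and 0.51 for RPB5 (adjusted p = 0.052), neither called. RPC19 was measured only in the wild type, at -0.87 and -2.0 (fitted -1.43, adjusted p = 0.00263), and its call ended without array 2 (adjusted p = 0.133). The fitted value of RPC40 was -0.19 in the mutant (adjusted p = 0.255) and -0.40 in the wild type (adjusted p = 0.0154), and the wild type call ended without array 1 (adjusted p = 0.264). RPC19 again lay below RPC40, although its own arrays were far apart. RPB8 and RPC10 were called in the wild type (-0.46 and -0.69), and both calls ended without either array (adjusted p between 0.0601 and 0.127). In the mutant RPB8 was not called (-0.33, adjusted p = 0.0673) and RPC10 had no value. With the length trend removed the wild type values were -1.87 for RPC19, -0.58 for RPC40, -0.88 for RPB8 and -1.20 for RPC10. All of these were called (adjusted p at or under 0.00127).

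As deposited, none of the short polymerase II-only genes was called lower at low glucose. RPB3 read -0.12 and -0.19 in the mutant and -0.047 and -0.013 in the wild type, and RPB7 read -0.37 and -0.13 in the mutant and 0.20 and -0.14 in the wild type. Neither was called in either genotype. RPB4 read -0.057 and -0.22 in the mutant and 0.46 and 0.50 in the wild type, where it was called higher (adjusted p = 0.00349; 0.0649 without array 2). With the length trend removed RPB4 in the wild type was 0.13 (adjusted p = 0.323), and RPB9, at 0.18 and -0.29 as deposited, was then called lower (-0.51, adjusted p = 0.00639).

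The 5 measured genes over 3000 bases, which encode the largest or second largest subunits, had the 5 lowest means among the members in the wild type at low glucose as deposited, although the arrays of RET1 overlapped those of RPA34 and RPA49. The order changed once the length trend was removed: RPA34 (-2.65), RPA43 (-2.04), RPA49 (-2.01) and RPC19 (-1.87) were then the lowest. The values of the 5 long genes as deposited follow. RPO21 read -0.55 and -0.49 in the mutant and -3.08 and -2.96 in the wild type. RPB2 read -0.41 and -0.33 in the mutant and -2.86 and -2.43 in the wild type. In both genes the groups were far apart, and both are polymerase II-only. RPA135 of polymerase I read -0.99 and -1.13 in the mutant and -3.07 and -3.15 in the wild type. For polymerase III, RPO31 read -1.21 and -0.54 in the mutant and -3.27 and -2.94 in the wild type, and RET1 read -0.68 and 0.43 in the mutant and -2.43 and -2.25 in the wild type. No array of the mutant reached the wild type range for any of the 5 genes. The fitted values in the wild type were between -2.34 and -3.11, or 5.06-fold to 8.62-fold lower (adjusted p between 1.03e-07 and 8.93e-06).

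Long genes in general were low on these arrays: the median of all tested genes over 3000 bases was -1.27 in the wild type and -0.21 in the mutant. After the trend with length was removed from each array, all 5 were also called lower in the wild type, at -1.85 for RPA135, -1.57 for RPO31, -1.36 for RPB2, -1.25 for RPO21 and -1.14 for RET1 (adjusted p at or under 0.000539), where 27.2% of all genes, not matched for length, were called lower with the trend removed. In the mutant the corresponding values were -0.83, -0.56, -0.13, -0.13 and 0.091, and of these RPA135 and RPO31 were called (adjusted p = 0.000272 and 0.043), where 16.1% of all genes, not matched for length, were called lower. As deposited, RPA135, RPO31 and RPO21 were called lower in the mutant (-1.06, -0.88 and -0.52), and the RPO31 and RPO21 calls ended without either array (adjusted p between 0.057 and 0.266). The part of transcript length, of RNA quality and of the oligo(dT)-primed labelling in the low ratios of long genes was not tested.

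**Figure D3:**
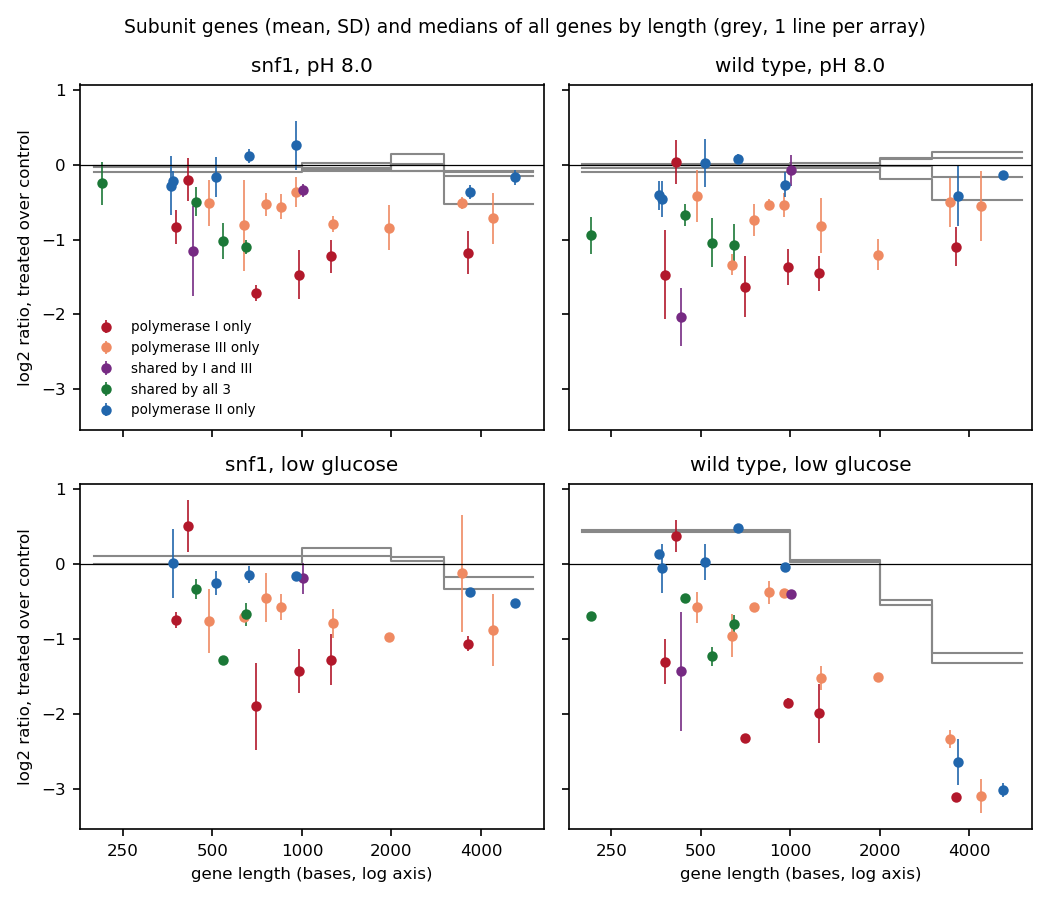
Mean log2 ratio, treated over control, of each subunit gene (points, with the SD over the arrays of the group as bars, and no bar where 1 array gave a value) against its gene length on a log axis, in 4 panels. Grey steps show the median of all genes under 1000, from 1000 to 2000, from 2000 to 3000 and over 3000 bases, 1 line per array: they reach no lower than -0.52 in the other panels (snf1 array 1 at pH 8.0), and stand at -1.32 and -1.18 for genes over 3000 bases in the wild type at low glucose, where the 5 longest measured subunit genes lie lower still.

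Counterpart subunits that hold the same position in the 3 enzymes show the contrast at some positions and not at others. In the assembly pair, the smaller position is RPC19 in polymerases I and III and RPB11 in polymerase II, with means at alkaline pH of -1.15 ± 0.60 (SD, n = 3) for RPC19 and -0.28 ± 0.39 (n = 3) for RPB11 in the mutant, and of -2.04 ± 0.39 (n = 4) and -0.41 ± 0.20 (n = 2) in the wild type. At the larger position the means were -0.34 ± 0.088 for RPC40 and 0.26 ± 0.32 for RPB3 in the mutant, where the arrays of the genes did not overlap, and -0.072 ± 0.21 and -0.26 ± 0.17 in the wild type, where they did (n = 4 each). By their means RPC19 thus lay below RPB11 in both genotypes, with 1 mutant array of each overlapping, while RPC40 lay below RPB3 in the mutant and slightly above it in the wild type.

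For the stalk subunit that contacts RNA, the wild type means at alkaline pH were -1.36 ± 0.24 for RPA43, -1.33 ± 0.14 for RPC25 and 0.028 ± 0.32 for RPB7 (SD, n = 4 each). For its partner they were 0.038 ± 0.29 for RPA14, -0.42 ± 0.34 for RPC17 and 0.077 ± 0.072 for RPB4. The RNA-contacting subunit was thus low in polymerases I and III and near 0 in polymerase II, while the partner was near 0 in polymerases I and II. RPA12 averaged -1.47 ± 0.60 and its polymerase II counterpart RPB9 -0.46 ± 0.24, with no value for the polymerase III counterpart RPC11. In the second largest position RPA135 averaged -1.09 ± 0.26, RET1 -0.50 ± 0.33 and RPB2 -0.42 ± 0.41 in the wild type at alkaline pH, so the polymerase III member lay beside that of polymerase II there and not beside that of polymerase I.

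**Figure D4:**
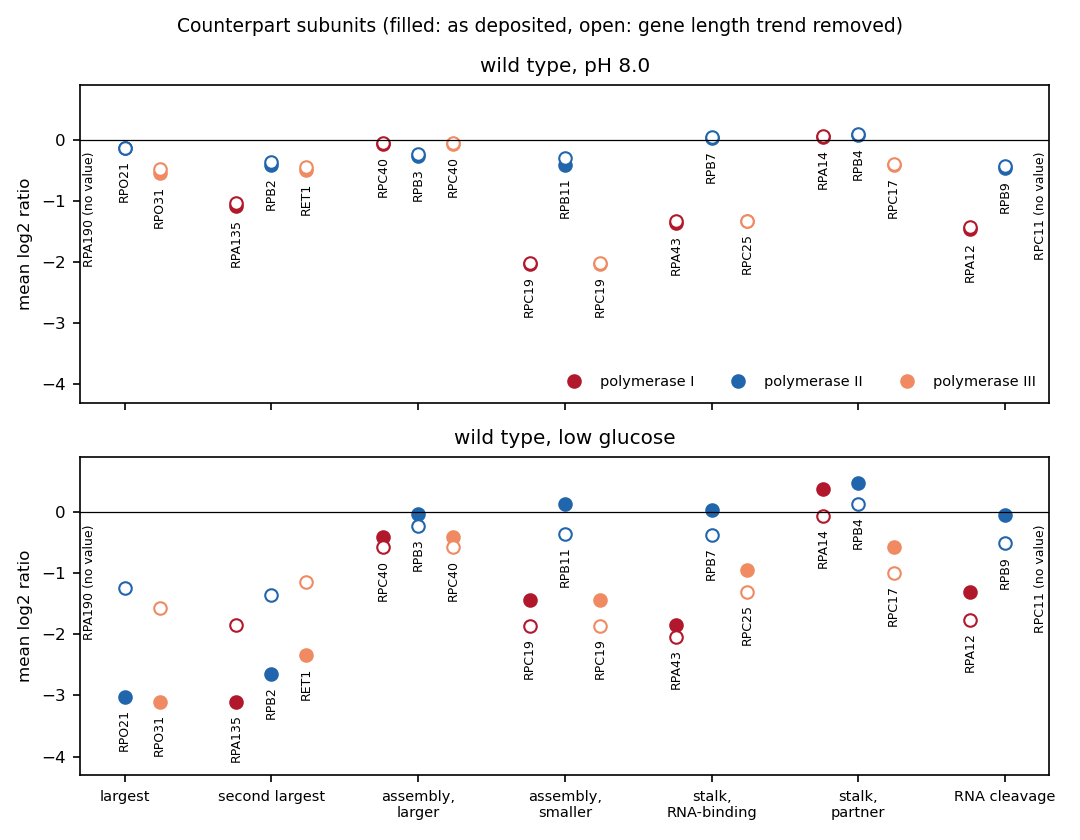
Mean log2 ratio, treated over control, in the wild type for subunits that hold the same position in polymerases I, II and III, at pH 8.0 (top) and at low glucose (bottom); filled points are as deposited and open points have the trend with gene length removed. The shared genes RPC40 and RPC19 are drawn under both polymerase I and polymerase III, and at low glucose the filled points of the measured largest and second largest subunits lie between -2.34 and -3.11 in all 3 enzymes while their open points lie between -1.14 and -1.85.

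The dependence on SNF1 was tested as the difference of the log2 ratios, snf1 minus wild type, within each treatment. At alkaline pH 0 members were called lower and 0 higher among 23 tested, where 1.16% of all genes were called in either direction. The largest difference was that of RPC19, 0.93 ± 0.34 (95% interval 0.17 to 1.70, adjusted p = 0.211). The difference of RPC10 was 0.70 (interval 0.30 to 1.09, adjusted p = 0.0878) and that of RPB3 0.52 (interval 0.15 to 0.89, adjusted p = 0.145). For both genes snf1 array 3 was the lowest of the mutant arrays, and without it both were called higher in the mutant (0.84, adjusted p = 0.0268, and 0.70, adjusted p = 0.0217). At the other end, that of RPC40 was -0.27 (interval -0.55 to 0.0088). For the polymerase I genes RPA34, RPA43 and RPA135 the differences were -0.083, -0.11 and -0.083, with intervals that reach from -0.55 to 0.39, from -0.52 to 0.31 and from -0.47 to 0.30. These intervals leave room for differences in either direction.

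At low glucose 7 of 22 tested members were called higher and 1 lower in the mutant than in the wild type, where 27.6% of all genes were higher and 13.0% lower. Of genes over 3000 bases, 76.4% were called higher. As deposited, the 5 largest differences were those of the 5 long genes: RPO21 (2.50 ± 0.19), RPB2 (2.27 ± 0.25), RPO31 (2.23 ± 0.34), RET1 (2.22 ± 0.30) and RPA135 (2.05 ± 0.25), with adjusted p between 8.79e-05 and 0.000767. With the trend with length removed they were 1.12, 1.22, 1.01, 1.24 and 1.02, all called (adjusted p between 0.00119 and 0.0216), where 21.4% of all genes, not matched for length, were called higher. RPA12, a short gene at 0.56 as deposited (adjusted p = 0.189), was then called at 1.06 (adjusted p = 0.0269), above RPA135 and RPO31. When the arrays were scaled to one spread, the RPA135 and RPO31 calls ended (0.85 and 1.10, adjusted p = 0.0862 and 0.0746).

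Among shorter members RPC53 (0.73, adjusted p = 0.0332) and RPA49 (0.72, adjusted p = 0.0296) were higher in the mutant, that is, they had fallen less. RPB4 was lower (-0.62, adjusted p = 0.0109). These calls were not stable. The RPC53 call ended without snf1 array 2 or wild type array 1 (adjusted p = 0.251 and 0.251) and with arrays scaled to one spread (0.16, adjusted p = 0.694). The RPA49 call ended without snf1 array 1 or 2 or wild type array 2 (adjusted p = 0.187, 0.0565 and 0.225), and with arrays scaled to one spread the RPA49 difference turned to -0.092 (adjusted p = 0.875). The RPB4 call ended without snf1 array 2 or either wild type array (adjusted p between 0.0583 and 0.0852), with arrays scaled to one spread (adjusted p = 0.112) and with the length trend removed (-0.24, adjusted p = 0.261). Besides RPA12, RPB8 (0.59, adjusted p = 0.0425) and RPB9 (0.57, adjusted p = 0.0389) were called higher in the mutant with the trend removed and not as deposited.

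**Figure D5:**
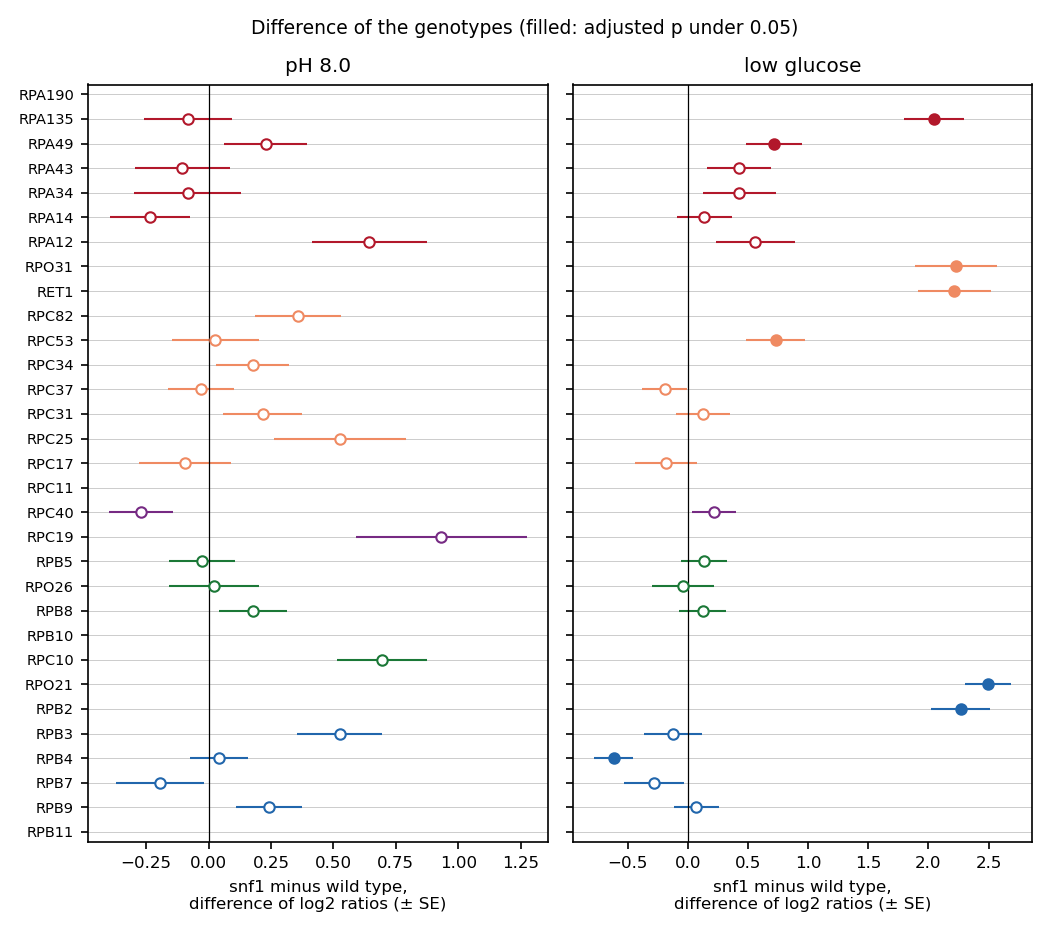
Difference of the log2 ratios, snf1 minus wild type, with its SE for each tested subunit gene at pH 8.0 (left) and at low glucose (right); colours mark the enzyme as in the plot of all arrays and filled points have an adjusted p under 0.05. No point is filled at pH 8.0, and at low glucose the 5 genes over 3000 bases lie between 2.05 and 2.50.

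The responses to the treatments were also set against each other within a genotype, as alkaline pH minus low glucose. Strain, exposure time and treatment change together in this comparison and cannot be told apart. In the mutant only RPA14 was called of 18 tested members: it was lower at alkaline pH (-0.71, adjusted p = 0.0291), where 13.8% of genes were, and the call ended with each array centred on its median (-0.58, adjusted p = 0.0725) and without either low glucose array (adjusted p = 0.259 and 0.0963). In the wild type 7 of 25 members were higher and 1 lower at alkaline pH, where 20.9% of genes were higher and 24.3% lower, and 79.2% of those over 3000 bases were higher. The 4 long members tested differed most, with 2.55 for RPO31, 2.22 for RPB2, 2.02 for RPA135 and 1.84 for RET1. With the length trend removed these became 1.09, 1.00, 0.81 and 0.69, of which RET1 was no longer called (adjusted p = 0.0511), where 12.1% of all genes, not matched for length, were called higher. RPC53 (0.70), RPA34 (0.70) and RPA49 (0.54) were the other members called higher and RPB4 (-0.40) the one called lower. Each of these 4 calls ended without at least 1 array; without wild type low glucose array 1 the adjusted p was 0.223 for RPC53, 0.247 for RPA34, 0.0817 for RPA49 and 0.158 for RPB4. With arrays scaled to one spread RPA34 and RPA49 turned to -0.26 and -0.28, and RPC53 stood at 0.091 and RPB4 at -0.22, none called. After removal of that trend RPB4 (-0.049, adjusted p = 0.819) and RPA49 (adjusted p = 0.0581) were not called, while RPC40 (0.53), RPA43 (0.70) and RPO26 (0.59) were called higher (adjusted p between 0.02 and 0.0492).

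Genes that work beside the polymerases were taken from 5 lists with 55 genes, of which 51 had a value. In the list of polymerase I initiation factors most tested genes were lower. At alkaline pH 5 of 8 tested genes were lower in the mutant (median -0.41) and 6 of 8 in the wild type (median -0.52), and none was higher. Of all genes 26.2% were lower and 21.7% higher in the mutant, and 30.0% and 25.6% in the wild type. RRN10, part of the upstream activating factor, read -1.04, -0.85, -1.32 and -1.69 in the mutant and -1.27, -1.37, -1.04 and -1.25 in the wild type. RRN11 and RRN7, of the core factor, fell by 0.93 and 0.94 in the mutant and by 1.25 and 0.91 in the wild type. RRN3, which binds the stalk of polymerase I, changed less, by -0.48 in the mutant and -0.32 in the wild type (adjusted p = 0.00115 and 0.0108).

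At low glucose 4 of 7 genes of that list were lower and 1 higher in the mutant, where 16.9% of all genes were lower and 28.9% higher. In the wild type 5 of 9 were lower, where 31.5% of all genes were, and 4 with the length trend removed, where 27.2% were. RRN10 fell by 1.29 in the mutant and by 2.19 in the wild type, and the difference of the genotypes was called (0.90, adjusted p = 0.0161). RRN5, of the same factor as RRN10, was the gene called higher in the mutant (0.59, adjusted p = 0.0232). RRN6, of the core factor, stood at 0.18 in the mutant (adjusted p = 0.309) and at -0.80 in the wild type, with a called difference of 0.98 (adjusted p = 0.00514). With the length trend removed RRN6, a gene of 2685 bases, stood at 0.033 in the wild type (adjusted p = 0.838), with a difference of 0.25 (adjusted p = 0.324), and neither was called.

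Of the polymerase III initiation list at alkaline pH, 2 of 6 genes were lower in the mutant, where 26.2% of all genes were, and 1 of 7 was lower in the wild type, where 30.0% were, with medians of -0.061 and 0.08. TFC8, a TFIIIC subunit, was the gene lower in both (-0.47 in the mutant and -0.35 in the wild type), and BRF1, a TFIIIB subunit, stood at -0.071 and -0.08 and was not called (adjusted p = 0.535 and 0.462). MAF1, the repressor of polymerase III, was higher in the wild type at alkaline pH (0.65 ± 0.12, adjusted p = 0.00124) and was not tested in the mutant there. At low glucose it stood at 0.34 in the mutant (adjusted p = 0.131) and at 0.94 in the wild type (adjusted p = 0.000769), and the difference, -0.61, was not called (adjusted p = 0.0676; with the length trend removed it was called, at -0.67 and 0.0435). In the mutant none of 5 tested genes of this list was called at low glucose, where 16.9% of all genes were lower and 28.9% higher. In the wild type 4 of 8 were lower and 2 higher, against 31.5% and 33.7% of all genes. With the length trend removed the wild type counts were 1 lower and 3 higher, where 27.2% of all genes were lower and 1645 of 4846 higher.

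The polymerase II initiation list was mixed. Of all genes, 26.2% were lower and 21.7% higher in the mutant at alkaline pH, and 30.0% and 25.6% in the wild type. In this list 2 of 17 genes were lower and 3 higher in the mutant, and 4 were lower and 3 higher of 17 in the wild type. SPT15, the TATA-binding protein that serves all 3 polymerases, was the lowest of them in both, at -0.80, -0.69, -0.83 and -0.64 on the snf1 arrays and -0.93, -0.66, -0.58 and -0.67 on the wild type arrays (fitted -0.74 and -0.71, adjusted p = 7.46e-05 and 6.93e-05). TFB3, a TFIIH subunit, was higher in both (0.38 and 0.43). At low glucose the mutant had 2 of 13 genes higher and none lower, against 28.9% and 16.9% of all genes. The wild type had 5 of 17 lower and 6 higher, near the 31.5% and 33.7% of all genes. Once the length trend was removed the wild type counts were 3 lower and 1 higher, where 27.2% of all genes were lower and 1645 of 4846 higher. As deposited, the lowest in the wild type was RAD3, another TFIIH subunit, at -1.39, and the highest was TFB3 at 1.05.

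Of the elongation factor list, none of 8 tested genes was called in the mutant at alkaline pH, where 26.2% of all genes were lower and 21.7% higher. In the wild type 3 of 10 were lower, with SPT4 lowest (-0.57), and 1 was higher (CDC73, 0.23). The shares of all genes there were 30.0% lower and 25.6% higher. At low glucose 1 of 6 was higher and none lower in the mutant (PAF1, 0.60), against 28.9% and 16.9% of all genes. In the wild type 4 of 10 were lower and 1 higher (PAF1, 0.54), against 31.5% and 33.7% of all genes. With the length trend removed 3 were lower and 1 higher, where 27.2% of all genes were lower and 1645 of 4846 higher. The 2 lowest were the long genes SPT5 (-2.37) and SPT6 (-2.28); with the length trend removed they were -1.28 and -0.75 (adjusted p = 0.000281 and 0.000608).

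The list of polymerase assembly and nuclear import factors held both directions. At alkaline pH BUD27, a prefoldin-like protein that acts in the assembly of all 3 polymerases, read -1.42, -0.67, -0.97 and -0.92 in the mutant and -1.21, -2.47, -2.28 and -2.32 in the wild type, and NPA3, a GTPase for the nuclear import of polymerase II, read -0.58, -0.73, -0.68 and -0.53 in the mutant and -0.95, -0.64, -0.67 and -0.68 in the wild type. Both were lower in both genotypes (fitted -0.99 and -2.07 for BUD27, -0.63 and -0.74 for NPA3). IWR1, which carries assembled polymerase II into the nucleus, was higher, by 0.49 in the mutant and 0.75 in the wild type (adjusted p = 0.0113 and 0.000745). At low glucose the difference of the genotypes was called for all 3 genes. BUD27 changed by -0.76 in the mutant and -2.24 in the wild type (difference 1.48, adjusted p = 0.0129), NPA3 by -0.47 and -1.07 (difference 0.60, adjusted p = 0.014), and IWR1 stood at 0.39, not called, and 1.36 (difference -0.96, adjusted p = 0.015). With the length trend removed the BUD27 difference was not called (0.87, adjusted p = 0.105). At alkaline pH none of these 3 differences was called; that of BUD27 was 1.07 (adjusted p = 0.0886).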

How the data were processed

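The data are 12 two-colour yeast arrays, 1 ratio per gene and array. RNA (8 µg of total RNA per sample) was labelled by an indirect dUTP method with oligo(dT) priming, per the labels' protocols, and spots below 120 µm across or below 100 units of intensity were dropped by the authors. The deposited value table holds log2 ratios: its log base is taken as 2 and is not stated, its direction is likely treated over control, since this is the order of the titles, and arrays with opposite dyes had positive correlations (lowest coefficient 0.539 over 36 pairs), which shows a shared orientation and not which one; how it was normalized remains unstated in the sources used here. Of the 12 arrays, 10 are given to 3 decimals and wild type arrays 3 and 4 at alkaline pH to 2 decimals. The number of arrays limits the precision, and nothing in the labels says that replicate arrays came from separate cultures, so the p-values measure the spread between arrays, which may be technical.

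No further normalization was applied. A single limma fit (version 3.58.1, R 4.3.3; lmFit and eBayes) over all genes and all 12 arrays had a mean for each of the 4 groups and a dye term. Tests needed a value on at least 3 of 4 alkaline arrays, or 2 of 2 low glucose arrays, of each group compared, and p-values were adjusted by the Benjamini-Hochberg method over all genes tested in a comparison, with calls at an adjusted p under 0.05. The fit was tested on simulated data with known changes. The simulated noise was independent between arrays, with 1 spread per gene in all groups and no dye effect or length trend. That test therefore does not cover how such features of the real arrays move the calls. Gene lengths came from the R64 annotation (5639 of 6212 spots matched), and the trend with length was removed per array by loess (span 0.5, degree 1). Of the protein-coding lengths 96.3% were multiples of 3, so a gene length is not always that of the coding sequence. The 31 members, their classes and the pathway lists were chosen with earlier results of these data known. All members are named; of other genes, up to 2 called genes per direction, list and comparison with the largest change, plus MAF1, RRN3, SPT15, BRF1 and SNF1. Whether replicate numbers pair the samples was not settled. Deviations from the group means, with the dye not removed, correlated between -0.395 and 0.0405 for the same number at alkaline pH. At low glucose they correlated at 0.269 for both numbers, but there are only 2 pairs, which are not independent. Same-numbered arrays of the genotypes carried opposite dyes for numbers 1 and 2 at alkaline pH and the same dye otherwise. Dye and pairing therefore cannot be told apart in these values. No sequence is shown. Figures were drawn with matplotlib 3.10.9.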

Additional observations from a re-analysis of the deposited data

Results flagged for a closer look

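In 48 sets of 4 arrays of one gene and group, 6 had an array far from the other three by Dixon's test at the 95% level, where chance gives about 1 in 20 sets. On the first wild type array at alkaline pH RPA49 (-1.798) and RPO26 (-1.527) were the lowest of their group, and on the second wild type array RET1 (-0.991) and RPC82 (-1.507) were. On the third wild type array RPC10 (-0.57) was the highest of its group, and on the second snf1 array RPC40 (-0.473) was the lowest of its group.

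The response to low glucose differed between the genotypes, by the limma test of the difference, for 8 members. The difference, snf1 minus wild type, was 2.497 for RPO21, 2.269 for RPB2, 2.2285 for RPO31, 2.2165 for RET1, 2.0465 for RPA135, 0.73 for RPC53, 0.716 for RPA49 and -0.618 for RPB4. The first 5 are the measured members over 3000 bases, and the share of the length trend of the wild type arrays in these differences was measured only as the values with that trend removed, given above.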

How the results depend on the processing

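Over 186 member results, 2632 values under alternatives kept their side of the threshold in 2474 cases, lost the call in 140, gained it in 15 and turned the direction of a called value in 3. Among the 2474 were 88 values that changed sign without being called under either setting. The 3 called values that turned did so with arrays scaled to one spread: RPA49 in snf1 minus wild type at low glucose (-0.092), and RPA34 (-0.26) and RPA49 (-0.28) in alkaline minus low glucose in the wild type. Scaling changed the members called in the wild type at low glucose to 13 (22 as reported), in snf1 minus wild type at low glucose to 3 (8) and in alkaline minus low glucose in the wild type to 2 (8), and the genes called to 2121 (3405), 491 (1481) and 602 (2178). Averaging consecutive arrays gave 7 members in the mutant at low glucose (14), 5 in the genotype difference at low glucose and 4 in alkaline minus low glucose in the wild type. It gave 1665 genes called in the wild type (2766) and 1246 in the mutant (2203) at alkaline pH, 803 in the mutant at low glucose (1696), 610 in the genotype difference at low glucose and 673 in alkaline minus low glucose in the wild type. It gave 0 genes by limma in snf1 minus wild type at alkaline pH (51 as reported; 257 at an unadjusted p under 0.05) and 0 in alkaline minus low glucose in the mutant (564 as reported; 571 at an unadjusted p under 0.05). With consecutive pairs as a random block these 2 counts were 23 and 290, with only the groups compared in the fit 30 and 194, and the members called in alkaline minus low glucose in the wild type were 4 with the random block. Removing the length trend gave 1290 genes in alkaline minus low glucose in the wild type. In the mutant that comparison had 1 member called, and 0 without the dye term, with arrays centred, with only its groups in the fit, with the random block, with averaging or with the replicate block. Centring moved the median of all genes in it from -0.137 to -0.010. The cause of these changes was not tested.

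The replicate number was also used as a block, although the deviations cannot settle whether it pairs the arrays. It gave 5 members called in alkaline minus low glucose in the wild type, and 358 genes and 0 members in that of the mutant. With both directions counted together, it moved no other count of calls by over 1.5 times. The block also ended single calls. Among them were RPA14 (adjusted p = 0.059) and RPC31 (0.0754) in the mutant at low glucose, and RPA49 (0.0542) in the genotype difference there. At low glucose all snf1 arrays correlated best with their own number, with only 2 pairs, and at alkaline pH none of 4 did.

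Higher against lower calls, 1007 against 1171 in alkaline minus low glucose in the wild type, became 1143 against 864 with centring and 373 against 229 with scaling; 110 against 454 in the mutant became 156 against 283 with centring; and 1007 against 474 in the genotype difference at low glucose became 397 against 94 with scaling.

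Leaving out one array at a time gave 2188 to 2527 genes and 18 to 19 members in the wild type at alkaline pH, 1887 to 2191 and 16 to 18 in the mutant, 2364 to 2549 and 14 to 16 in the wild type at low glucose, and 817 to 1047 and 8 to 9 in the mutant. The genotype difference had 22 to 161 genes and 0 to 2 members at alkaline pH (161 and 2 without the third snf1 array) and 962 to 1255 and 5 to 7 at low glucose. Alkaline minus low glucose had 985 to 2238 and 4 to 9 in the wild type, and 50 to 720 and 0 to 2 in the mutant. Without 1 low glucose array the lone array is assumed to vary like the other groups. A fit of 1 low glucose group alone has no dye-corrected residual, and a promoter window was not analysed here.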

Other observations

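Other genes of the initiation and elongation lists differed between the genotypes at low glucose. TFC8 and TFC3, which encode TFIIIC subunits, were higher in the mutant than in the wild type relative to their controls (0.83, adjusted p = 0.00237, and 0.94, adjusted p = 0.021). TOA1, a TFIIA subunit, was lower (-0.72, adjusted p = 0.0054), with fitted values of -0.21 in the mutant, not called, and 0.50 in the wild type. TFG1, the largest TFIIF subunit, was higher in the mutant (0.89, adjusted p = 0.00262), with 0.32 in the mutant, not called, and -0.56 in the wild type. Of elongation factors, SPT5 (1.87, adjusted p = 0.000935) and CTR9 of the Paf1 complex (1.35, adjusted p = 0.0115) were higher in the mutant. With the length trend removed the differences were -0.08 for TFC3 (adjusted p = 0.806), 0.36 for TFG1 (0.116), 0.97 for SPT5 (0.0228) and 0.44 for CTR9 (0.28), and of these 4 only SPT5 was called. The TOA1 value in the wild type was 0.25 with the trend removed and was not called (adjusted p = 0.0823).

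In the mutant at low glucose KIN28, the kinase of TFIIH, and SUA7, which encodes TFIIB, were the genes of the polymerase II initiation list called higher (0.49, adjusted p = 0.00923, and 0.41, adjusted p = 0.0228). Both had been called lower in the wild type at alkaline pH (-0.26 and -0.28).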
